A study of Bos taurus with 8 samples.

Results

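Untreated bovine whole blood was profiled on the 4 CONTROL arrays, of 8 arrays in the series, and the genes and cell types with the brightest probes in it are described here. The blood came from clinically healthy female Holstein Friesian cows without mastitis (n = 5), drawn after 60 days on the FastTrack Microbial (Probiotics) pack. It was kept for 30 min at 37 °C under 5% CO2 with nothing added, so the baseline is that of blood incubated outside the animal. RNA was extracted with a kit that lyses red and white cells separately and removes DNA. It had an integrity number above 7, was pooled within the group, labelled with Cy3 and hybridized to Agilent bovine arrays. All 4 CONTROL arrays sat on 1 slide of 2. The sources used here do not say which cows entered which pool, so the spread between arrays may be technical and says nothing of the spread between cows. Every n below counts arrays, and with a single condition no groups were tested against each other.

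A level is the log2 signal of a probe minus the 75th percentile of its array. A level of 0 is thus a probe at that percentile, and 1 unit is a 2-fold difference in signal. A probe was kept where each of the 4 arrays had it well above background, by the scanner software's own call. This held for 10444 of 43653 probes (23.9%) and for 6511 of 17033 named genes (38.2%). A gene took its highest kept probe. The kept genes had a median level of 2.39, with the 10th percentile at -0.04 and the 90th at 5.55, and only 131 of them lay above 8. The order of levels is one of probe brightness, since probes differ in how well they bind, and it is no order of transcript number.

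Blood holds many red cells, which in mammals have lost their nucleus and carry little RNA, a large pool of neutrophils and lymphocytes, and fewer monocytes, eosinophils and basophils. Platelets are cell fragments that keep some RNA of their parent cell, the megakaryocyte. In cattle, gamma delta T cells that carry WC1 scavenger receptors form a large part of blood lymphocytes. A resting leukocyte spends much of its messenger RNA on ribosomal proteins, the actin cytoskeleton and the MHC class I molecules that show peptides to T cells. In RNA of a mixed tissue, fewer cells of a type and less RNA per cell cannot be told apart.

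Much of each array was dim, and this sets which genes could be seen. A spot was called lit where the 90th percentile of the 61 spots nearest to it came within 1.5 log2 units of the 90th percentile of these local values on the array. By this measure 31.7% to 40.9% of spots were lit. Arrays 1 to 3 had a bright rim and an intermediate band across the middle, and array 4 had 1 large dim area. Among lit spots 57.4% to 59.8% were well above background, and among dim spots 11.9% to 21.9%. The 75th percentile of intensity was 150, 117, 122 and 53.4 on arrays 1 to 4, so that most lit genes had their highest level on array 4. The median SD over arrays of a kept probe was 0.54, and 0.26 once each array was centred on the kept probes. Between arrays the correlation across kept probes ran from 0.902 to 0.992, and from 0.984 to 0.997 across the 7681 lit on all 4; probes within an array are not independent.

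**Figure D1:**
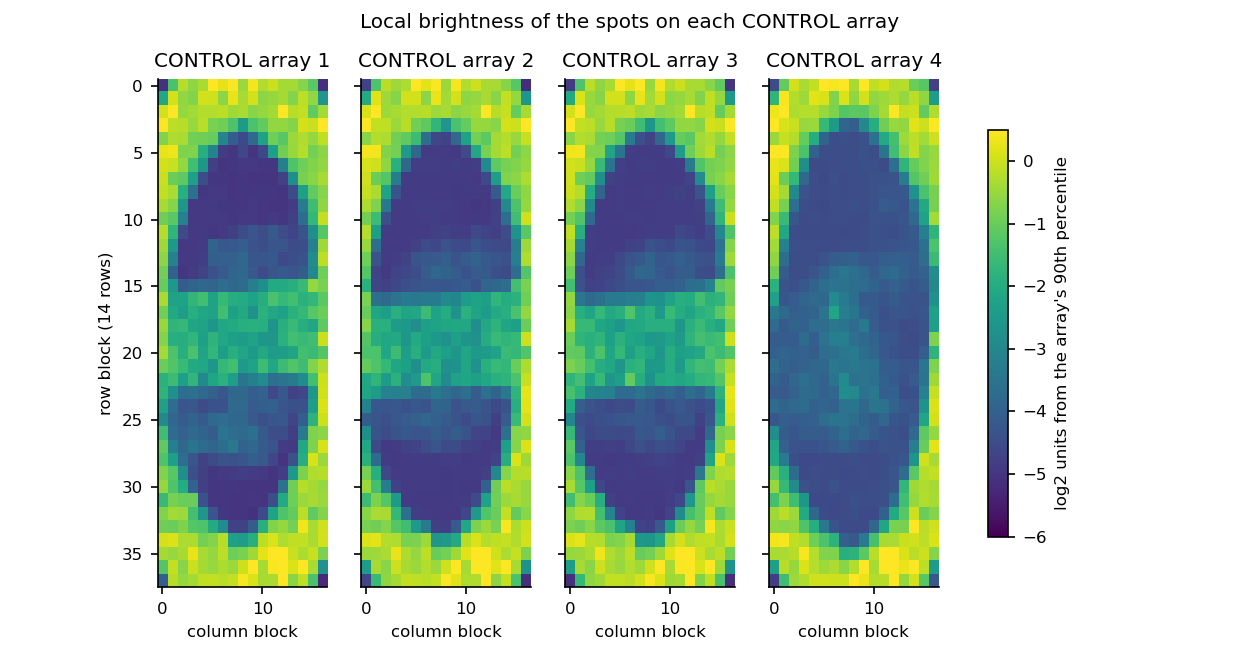
Local brightness over the surface of each CONTROL array: each cell is a block of 14 rows and 5 columns of spots, coloured by how many log2 units its local 90th percentile lies from the array's. Arrays 1 to 3 show a bright rim, a middle band and 2 dim areas, and array 4 shows 1 dim ellipse.

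Spike-in control probes gave the same picture. The 5 brightest spike-in probes had 32 spots each, scattered over the array, and their lit spots exceeded their dim spots by 6.22, 6.61, 6.94 and 8.13 log2 units on arrays 1 to 4. The median SD among lit spots of 1 probe was 0.31 to 0.48, and among all its spots 4.55 to 4.81. A gene that was not kept is therefore not shown to be absent, and on dim spots it gives no reading: 25124 probes (57.6%) were lit on no array, and 6445 named genes had no lit probe at all. Of the 8488 named genes with a probe lit on all 4 arrays, 5119 (60.3%) were kept by such a probe. Counts of kept genes in each list below are to be read beside this share and the 38.2% of all named genes.

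**Figure D2:**
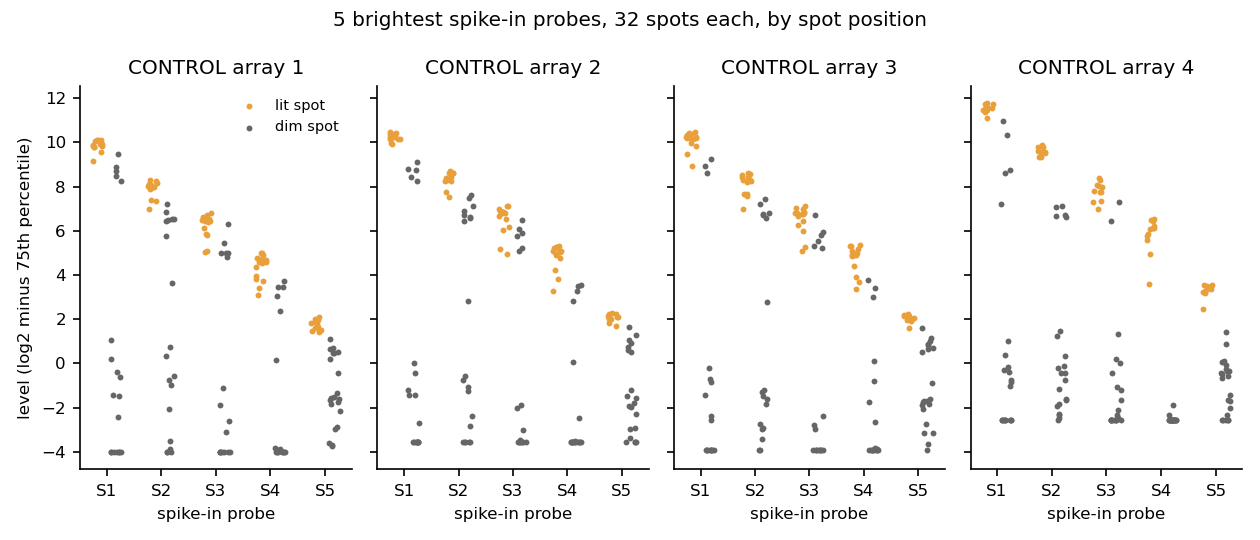
Levels (log2 signal minus the 75th percentile) of all spots of the 5 brightest spike-in probes, S1 to S5, on each CONTROL array, with lit spots in orange and dim spots in grey. Lit spots of 1 probe lie close together, while many dim spots of the same probe lie at the floor.

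The probes below show what the brightest signals were read from. The first pair has no gene name in the deposited table, which describes them as mitochondrial RNA similar to 16S and 12S rRNA; the next pair reads 2 protein genes of the mitochondrial genome, and the last pair reads globins.
16S rRNA: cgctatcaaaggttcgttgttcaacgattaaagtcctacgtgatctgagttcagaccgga
12S rRNA: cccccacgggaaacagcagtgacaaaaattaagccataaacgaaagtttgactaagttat
COX1: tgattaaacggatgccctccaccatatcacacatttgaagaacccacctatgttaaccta
ATP6: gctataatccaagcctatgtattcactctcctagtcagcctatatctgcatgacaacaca
HBB: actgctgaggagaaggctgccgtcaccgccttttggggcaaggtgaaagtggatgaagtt
HBG: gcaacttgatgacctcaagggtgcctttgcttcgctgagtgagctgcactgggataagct

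The summed signal of these arrays was concentrated in few probes. The 10 highest probes held 6.71% ± 1.00 (SD, n = 4) of the summed signal of all non-control probes, the 100 highest held 35.2% ± 4.09, and the 500 highest held 62.0% ± 3.99. Of all probes 57.6% were lit on no array, while 90 of the 100 highest probes were lit on all 4. The shares therefore describe these partly dim arrays and not blood itself. Of the 100 highest named genes, 46 encode cytosolic ribosomal proteins, 4 are in the MHC class I list, 4 are mitochondrially encoded, 3 belong to the actin cytoskeleton and 35 are in none of the 30 gene lists used. The last include BoLA and BOLA-N, listed under class I names, at ranks 55 and 63. The 25 highest, numbered locus names left out, ran from 11.53 down to 10.34. The largest gap between neighbours in that order was 0.30, between BOLA and RPS3, and BOLA was the higher on each array, by 0.32, 0.39, 0.34 and 0.16. Much of the SD (median 0.59) is an offset that genes share on an array, and the median SD was 0.27 once arrays were centred. Of the 24 neighbouring pairs, 6 kept their order on all 4 arrays and 2 differed by more than the centred SD of the higher gene. Array 4 was the highest for 23 of the 25.

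**Figure D3:**
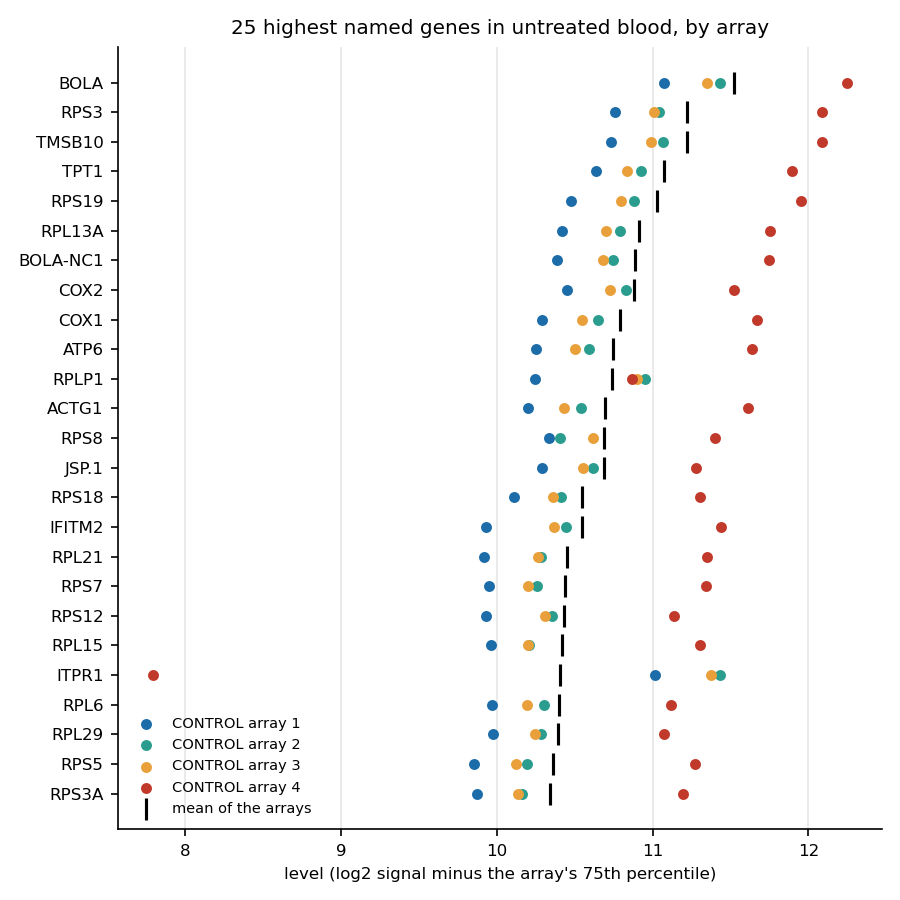
Levels of the 25 highest named genes on CONTROL arrays 1 to 4 (points) with the mean (black bar), on the log2 scale relative to each array's 75th percentile. Array 4 lies highest for 23 genes, and ITPR1 has 1 array far below the others.

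The first gene in the order was of MHC class I. BOLA, a classical or classical-like class I heavy chain of cattle, read 11.07, 11.43, 11.35 and 12.25 on arrays 1 to 4 (11.53 ± 0.51). BOLA-NC1, a non-classical class I gene, averaged 10.89 ± 0.59, and JSP.1, another class I heavy chain, 10.69 ± 0.42. All 3 were lowest on array 1 and highest on array 4, the pattern of the array scaling. B2M, the light chain that class I molecules share, averaged 9.90 ± 0.52. Of 14 class I pathway genes on the array 10 were kept, with a median level of 6.46, and among the rest of the pathway CALR, the chaperone calreticulin, stood at 7.16 on dim spots. All probes of the list held 3.92% ± 0.29 of the summed signal. BOLA stayed first under every alternative that gave an order except the mean over a gene's probes, where a numbered locus, LOC100851031, came first.

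Some class I probes are near copies of each other, which bears on how far their levels belong to 1 gene. The windows shown are the stretches in which a second BOLA probe (A_73_115812, 11.48 ± 0.36, lit on 3 arrays) matches the BOLA-NC1 and JSP.1 probes, with capitals marking the bases that differ from BOLA: 1 of 30 in BOLA-NC1 and 3 of 30 in JSP.1. The probe behind the BOLA level of 11.53, A_73_P098582, differs from this window at 19 of 30 bases in its nearest stretch. Cross-binding among them was not tested.
BOLA: gtctttgcttcatatgcactgagtaatgat
BOLA-NC1: Ctctttgcttcatatgcactgagtaatgat
JSP.1: gtctttgcttTatatAcactgaAtaatgat

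Ribosomal protein genes were the largest block. Of 82 on the array 71 were kept, against 38.2% of all named genes, and 52 of the 53 with a probe lit on all 4 arrays were kept by one, against 60.3%. Their median level was 9.51, at the 99.1st percentile of kept genes, and all their probes together held 24% ± 0.25 of the summed signal. RPS3, a protein of the small subunit near the messenger entry, read 10.76, 11.04, 11.01 and 12.09 (11.22 ± 0.59). RPS19, a small-subunit protein needed for red cell formation, averaged 11.03 ± 0.64, and RPL13A of the large subunit 10.92 ± 0.58. RPLP1, a protein of the ribosomal stalk, read 10.25, 10.95, 10.90 and 10.87, with array 1 the lowest and the others close together. None of the 11 not kept had a probe lit on all 4 arrays: RPL14 read 6.17, 6.25 and 6.66 on arrays 1 to 3 and -1.89 on array 4. The genes of this family have many pseudogenes that can share a probe's target.

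Factors of translation stood high as well. Of 21 on the array 18 were kept, at a median level of 7.37. TPT1, a growth-related protein whose messenger is translated with the ribosomal proteins, read 10.64, 10.93, 10.84 and 11.89 (11.07 ± 0.56). EEF1A1, which brings aminoacyl-tRNA to the ribosome, averaged 9.87 ± 0.40, EEF1G 8.53 ± 0.61, and PABPC1, the poly(A)-binding protein, 8.12 ± 0.30.

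Mitochondrially encoded RNA was among the brightest signals. The unnamed 16S rRNA probe A_73_P100216 read 10.86, 11.08, 11.11 and 12.09 (11.29 ± 0.55), the third highest of all kept probes, and the 12S rRNA probe A_73_P100450 read 10.60, 10.86, 10.90 and 12.06 (11.10 ± 0.65), the sixth. COX2, the mitochondrial subunit 2 of cytochrome c oxidase and not the prostaglandin synthase, read 10.45, 10.83, 10.73 and 11.52 (10.88 ± 0.45). COX1, the subunit that holds the oxygen-reducing site, averaged 10.79 ± 0.61 and ATP6, a subunit of ATP synthase, 10.75 ± 0.61. COX3 stood lower at 9.26, ND4 of complex I at 7.51 and ATP8 at 7.01. Of 12 such genes on the array 9 were kept, with ND1 seen at 6.47, 6.58 and 6.71 on arrays 1 to 3 and at -0.65 on array 4, on dim spots. ND2 and ND4L had no lit probe either.

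Nuclear genes of the respiratory chain lay high among the kept genes. Of 43 on the array 29 were kept, at a median level of 5.95 and a median percentile of 92.2. ATP5F1B, the catalytic subunit of ATP synthase, averaged 8.80 ± 0.51, COX4I1 of cytochrome c oxidase 8.44 ± 0.62 and UQCRH of complex III 7.80 ± 0.60.

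Actin cytoskeleton genes, which serve crawling and engulfment, included some of the highest single genes. TMSB10, a small protein that binds actin monomers, read 10.73, 11.07, 10.99 and 12.09 (11.22 ± 0.60). ACTG1, cytoplasmic gamma actin, averaged 10.70 ± 0.63, and the myosin light chain MYL6 9.52 ± 0.62. ARPC1B and ARPC2, subunits of the complex that branches actin filaments, stood at 8.52 and 8.27. Of 27 genes on the array 19 were kept, and TMSB4X, the other abundant thymosin, lay at -3.43, -3.53, -3.46 and -2.54 on dim spots, so its level in blood cannot be read from these arrays.

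IFITM2 and ITPR1 were the only genes of the highest 25 outside the lists. IFITM2, a membrane protein of the interferon-induced family that hinders entry of viruses, read 9.93, 10.44, 10.37 and 11.44 (10.54 ± 0.64). ITPR1, a receptor that releases calcium from internal stores, read 11.02, 11.44, 11.37 and 7.79 (10.40 ± 1.75). Array 4 stood apart for ITPR1, where its spot was dim, and on arrays 1 to 3 it lay close to BOLA. With only probes lit on all 4 arrays, ITPR1 fell from the 99.7th to the 72.7th percentile of kept genes, read then by another probe at 4.11 ± 0.24.

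Genes carried by leukocytes in general were high. Of 20 on the array 12 were kept, all 8 with a probe lit on all 4 arrays among them, and the median level was 5.94. SRGN, the core protein of granule proteoglycan, read 8.83, 9.27, 9.19 and 10.20 (9.37 ± 0.59). CD48, a surface ligand of lymphocytes and monocytes, averaged 8.61 ± 0.49 on a probe lit on 1 array only. ITGB2, the shared chain of leukocyte integrins, averaged 7.92 ± 0.49. CD53 stood at 7.67 and PTPRC, the CD45 phosphatase that defines leukocytes, at 6.0 ± 0.20. CD52 read 6.09, 4.88 and 5.72 on arrays 1 to 3 and -1.64 on array 4.

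**Figure D4:**
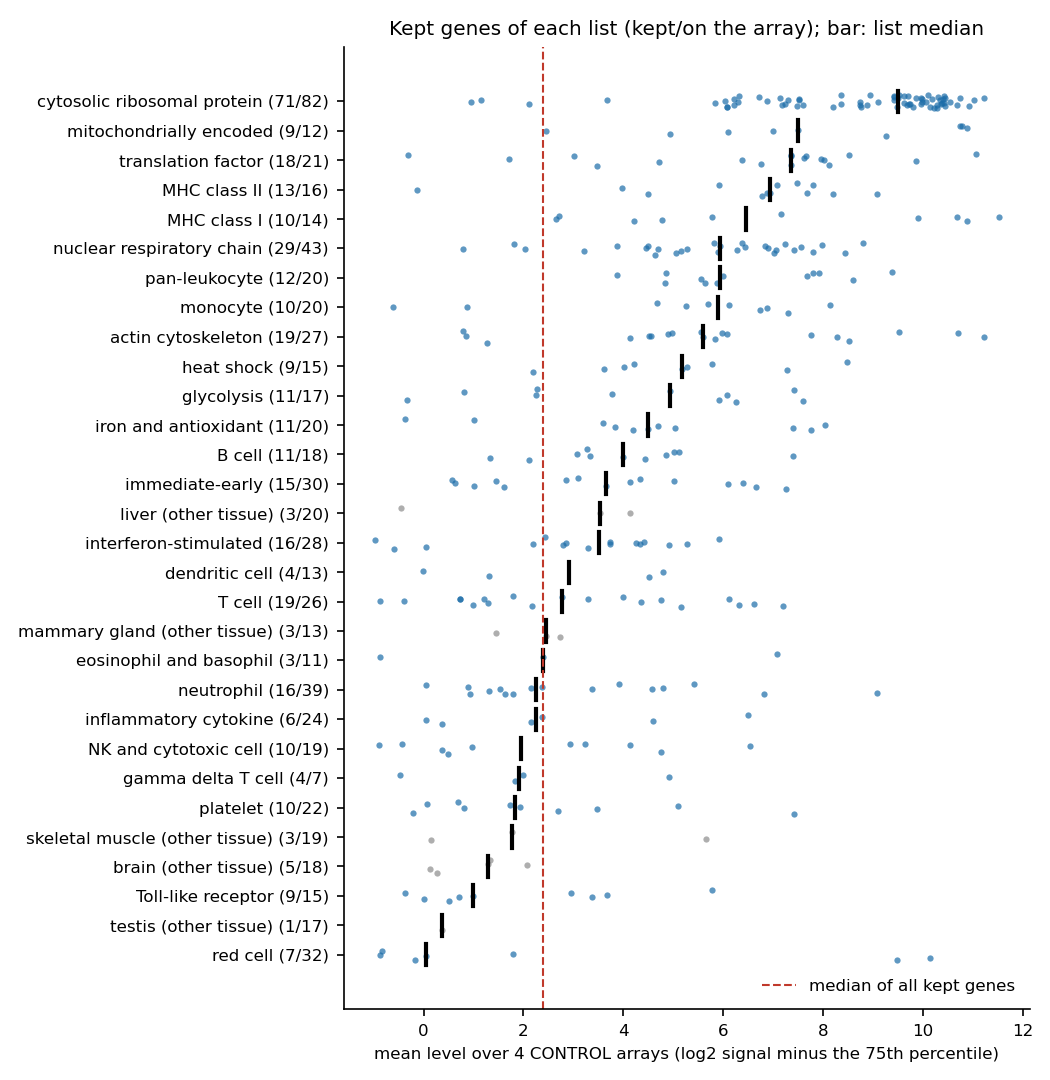
Mean levels over the 4 CONTROL arrays of the kept genes of each list (points; grey for lists of other tissues), with the list median as a black bar and the median of all kept genes, 2.39, as a dashed line; counts give kept genes over genes on the array. Ribosomal protein genes have the highest median, 9.51, and red cell genes the lowest, 0.05, apart from 2 points near 10; without array 4 the red cell median is 0.74, above that of the Toll-like receptor list (0.69) and the testis list (0.11).

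Across the 10 lists of blood cell types, 94 of 207 genes on the array were kept (45.4%), and 81 of the 108 with a probe lit on all 4 arrays were kept by one (75%). The corresponding shares over all named genes were 38.2% and 60.3%. The lists of monocytes and B cells had the highest medians and that of red cells the lowest, but each list rests on few kept genes and on which of its probes were lit.

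Monocyte genes were the highest of the cell-type lists. Of 20 on the array 10 were kept, at a median of 5.90 and the 92.0th percentile. FCN1, a secreted lectin of monocytes, read 7.67, 8.02, 8.04 and 8.83 (8.14 ± 0.49). SIRPA, the receptor for CD47, averaged 7.30 ± 0.58, the protease CTSS 6.89 ± 0.58 and lysozyme, LYZ, 6.74 ± 0.49. CSF1R, the receptor for the monocyte growth factor, stood at 6.11 ± 0.64 and AIF1 at 5.69 ± 0.58. CD14, the endotoxin co-receptor, was low on lit spots, at 0.48, 0.66, 0.58 and 1.79. CCR2, the receptor that draws monocytes into tissue, had its 1 probe lit on all 4 arrays and was well above background on none. CD68 lay on dim spots, near the floor.

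Kept neutrophil genes ranged from 0.06 to 9.09. Of 39 on the array 16 were kept (41%, against 38.2% of all named genes), with a median of 2.26 at the 47.9th percentile. Of the 18 with a probe lit on all 4 arrays 12 were kept by one (66.7%, against 60.3% over all named genes). S100A12, a calcium-binding alarm protein of the neutrophil cytosol, read 8.66, 8.94, 8.86 and 9.90 (9.09 ± 0.55). CSF3R, the receptor for granulocyte growth factor, averaged 6.81 ± 0.52, and CYBB, the catalytic chain of the phagocyte oxidase, 5.42 ± 0.58. CXCR1, a receptor for interleukin-8, stood at 4.80 ± 0.64, the beta-defensin DEFB7 at 4.58 ± 0.59 and the membrane protease MMP25 at 3.91 ± 0.99 on dim spots.

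The partners of S100A12 were read on fewer arrays. S100A8 read 6.30, 6.32 and 6.50 on arrays 1 to 3 and -2.54, the floor, on array 4, and its only probe was dim on all 4. S100A9, with which S100A8 forms calprotectin, read 5.09, 5.30 and 5.52 on arrays 1 to 3, where its probe was lit, and -2.54 on array 4. Over arrays 1 to 3 alone, 22 neutrophil genes were kept, with S100A8 at the 95.5th and S100A9 at the 90.9th percentile. NCF4, a cytosolic oxidase subunit, likewise read 5.04, 4.86 and 5.07 on arrays 1 to 3 and -2.54 on array 4.

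Granule proteins of neutrophils are made in the bone marrow, before the cells enter the blood, and several of their genes were low on lit spots. CATHL2 and CATHL4, cathelicidin antimicrobial peptides, and the protease CTSG had probes lit on all 4 arrays, none of them well above background on any array, and at mean levels of -2.90, -3.42 and -2.81. BPI, which binds bacterial endotoxin, was kept at 2.37. For MPO, CAMP and the other cathelicidins CATHL1, CATHL3, CATHL5 and CATHL6 no probe was lit on all 4 arrays. LTF, lactoferrin, had 1 of 5 probes lit on all 4 arrays, at the floor on each, while a dim probe read -0.34, 0.01, -0.11 and -0.61.

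T cell genes were broadly present. Of 26 on the array 19 were kept (73.1%, against 38.2% of all named genes), at a median of 2.78 and the 56.1st percentile. All 17 with a probe lit on all 4 arrays were kept by one, against 60.3% over all named genes. Among the 19 kept, 10 lay above the median of all kept genes. CD247, the zeta signalling chain of the T cell receptor, read 6.83, 7.09, 6.93 and 7.94 (7.2 ± 0.51). CD4, the helper cell co-receptor, read 6.55, 6.66, 6.41 and 6.83 (6.61 ± 0.17), and rose less on array 4 than CD247 did. The median SD over all kept probes was 0.54, and 0.26 once arrays were centred, so the CD4 value is no sign of unusual stability. CD3E of the receptor complex averaged 6.32 ± 0.54, the kinase LCK 6.11 ± 0.64, the adaptor LAT 5.15 ± 0.73 on dim spots and the transcription factor GATA3 4.75 ± 0.57. CD8A, the killer cell co-receptor, stood at 4.36 ± 0.41. CD3D was lower than its partner CD3E, at 2.17 ± 0.51, and levels of separate probes give no ratio of the transcripts.

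Of 7 gamma delta T cell genes on the array 4 were kept, and only CD163L1 lay above the median of kept genes. CD163L1, of the WC1 scavenger receptor group, read 4.43, 4.71, 4.68 and 5.81 (4.91 ± 0.61), with array 4 above the others. The WC1 family genes WC1.3 and WC1-12 averaged 1.83 and -0.46 on lit spots, and WC-7 averaged 1.98 on dim spots. WC1 itself read 1.37, 1.13 and 1.27 on arrays 1 to 3 and -2.54 on array 4, on dim spots throughout. The family members are near copies, so their signals may be shared.

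B cell genes had the second highest median of the cell-type lists, 3.99 over 11 kept of 18. All 9 with a probe lit on all 4 arrays were kept by one. CD79A, a signalling chain of the B cell receptor, read 7.00, 7.23, 7.18 and 8.17 (7.39 ± 0.53), and its partner CD79B averaged 5.11 ± 0.55. TNFRSF13C, the receptor for the survival factor BAFF, stood at 5.01, MS4A1, which encodes CD20, at 4.85, BANK1 at 4.44 and the transcription factor SPIB at 3.99. JCHAIN, the joining chain of secreted antibody made by plasma cells, was lower at 3.34 ± 0.34.

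NK and cytotoxic cell genes included 1 high and several low members. GNLY, a pore-forming granule protein, read 6.02, 6.34, 6.38 and 7.39 (6.53 ± 0.59). NKG7 averaged 4.76 ± 0.55, the protease CTSW 4.13 ± 0.59, the receptor CD244 3.23 ± 0.58 and TBX21, the transcription factor T-bet, 2.93 ± 0.65. GZMB, granzyme B, was near the level of the 75th percentile on arrays 1 to 3, at 0.66, 0.76 and 0.69, and read 1.77 on array 4. PRF1, perforin, was not kept: it read 0.20, -0.23, 0.18 and -0.68, on dim spots. Of 19 genes 10 were kept (52.6%, against 38.2% of all named genes), at a median of 1.95. Of the 10 with a probe lit on all 4 arrays 8 were kept by one (80%, against 60.3%).

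MHC class II genes, which monocytes, dendritic cells and B cells use to show peptides to helper T cells, were nearly all kept: 13 of 16, including all 12 with a probe lit on all 4 arrays. Their median was 6.95, at the 96.1st percentile. BOLA-DRA, the DR alpha chain, read 9.43, 9.38, 9.31 and 8.21, with array 4 the lowest and its spot dim there. BOLA-DRB3, the polymorphic DR beta chain, averaged 8.20 ± 0.50, CD74, which fills the groove before peptide loading, 7.81 ± 0.56, BOLA-DMA, which helps load peptide, 7.67 ± 0.52, and BOLA-DQB 7.49 ± 0.49.

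Of the markers of dendritic cells 4 of 13 were kept and of those of eosinophils and basophils 3 of 11. Among genes with a probe lit on all 4 arrays the counts were 4 of 6 (66.7%) and 3 of 5 (60%), near the 60.3% over all named genes. LAMP3 and ID2 stood at 4.52 and 4.79, and CD1E, a lipid-presenting protein, at 1.31. XCR1, a chemokine receptor of cross-presenting dendritic cells, sat on a spot lit on all 4 arrays and was at the floor on each, while FLT3 averaged -2.47 on dim spots. ALOX15, a lipoxygenase abundant in eosinophils, read 6.58, 6.95, 6.88 and 7.91 (7.08 ± 0.58). The eosinophil peroxidase EPX and the eotaxin receptor CCR3 lay on dim spots and were not kept, so ALOX15 stands without the other defining genes. CEBPE, a granulocyte transcription factor, stood at 2.39 ± 0.63 and KIT, a mast cell and progenitor receptor, at -1.27, -1.18, -1.15 and 0.15.

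Platelet genes gave a mixed reading. F13A1, coagulation factor XIII, which monocytes also make, read 6.92, 7.27, 7.23 and 8.24 (7.41 ± 0.57). GNG11, a G-protein subunit, averaged 5.09 ± 0.54 on a probe lit on 2 arrays. The ADP receptor P2RY12 averaged 3.47 ± 0.27, CLU 2.69 ± 0.53, the chemokine PPBP 1.93 ± 0.50 and thrombospondin, THBS1, 1.73 ± 0.32. The receptor genes GP1BA and GP5 and the matrix gene MMRN1 had probes lit on all 4 arrays and were not well above background on any. PF4, the most platelet-restricted chemokine of the list, was at the floor on dim spots and gives no reading. Of 22 genes 10 were kept (45.5%, against 38.2% of all named genes). Of the 13 with a probe lit on all 4 arrays 7 were kept by one (53.8%, against 60.3%).

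Red cell genes were low apart from HBB and HBG among those kept. Of 32 on the array 7 were kept (21.9%, against 38.2% of all named genes), at a median of 0.05, and 16 had no lit probe. Of the 13 with a probe lit on all 4 arrays 7 were kept by one (53.8%, against 60.3% over all named genes). HBB, beta globin, read 8.98, 9.34, 9.25 and 10.39 (9.49 ± 0.62). HBG, listed as gamma globin, read 9.68, 9.96, 9.98 and 10.94 (10.14 ± 0.55); beta-like globins are close copies, and whether this probe also bound beta globin was not tested. HBA, alpha globin, had 1 probe, on a dim spot, and read 7.92, 7.65, 7.54 and -2.54, so it was not kept. The 4 other leading members lay far below: AHSP, the chaperone of alpha globin, at 1.80, KLF1, the erythroid transcription factor, at 0.05, EPB41 at -0.18 and HBE1, embryonic epsilon globin, at -0.83.

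The seventh kept red cell gene, SELENBP1, a selenium-binding protein, stood at -0.87. CA1, carbonic anhydrase 1, SPTB, beta spectrin, and RHAG, a membrane channel, were at the floor on all 4 arrays on lit spots. ALAS2, the first enzyme of heme synthesis, and SLC4A1, the anion exchanger of the membrane, were not kept. All probes of the list held 0.61% ± 0.04 of the summed signal, against 24% for ribosomal protein genes. Such a share adds up every probe of a list, and the lists differ in size, with 32 red cell genes on the array against 82. HBB and HBA had 1 probe each, and that of HBA was dim. The red cells were lysed apart from the white cells during extraction, and the part of this step in these values was not tested. Over arrays 1 to 3 alone, 10 red cell genes were kept, HBA among them at the 98.0th percentile, and the median level of the list was 0.74.

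**Figure D5:**
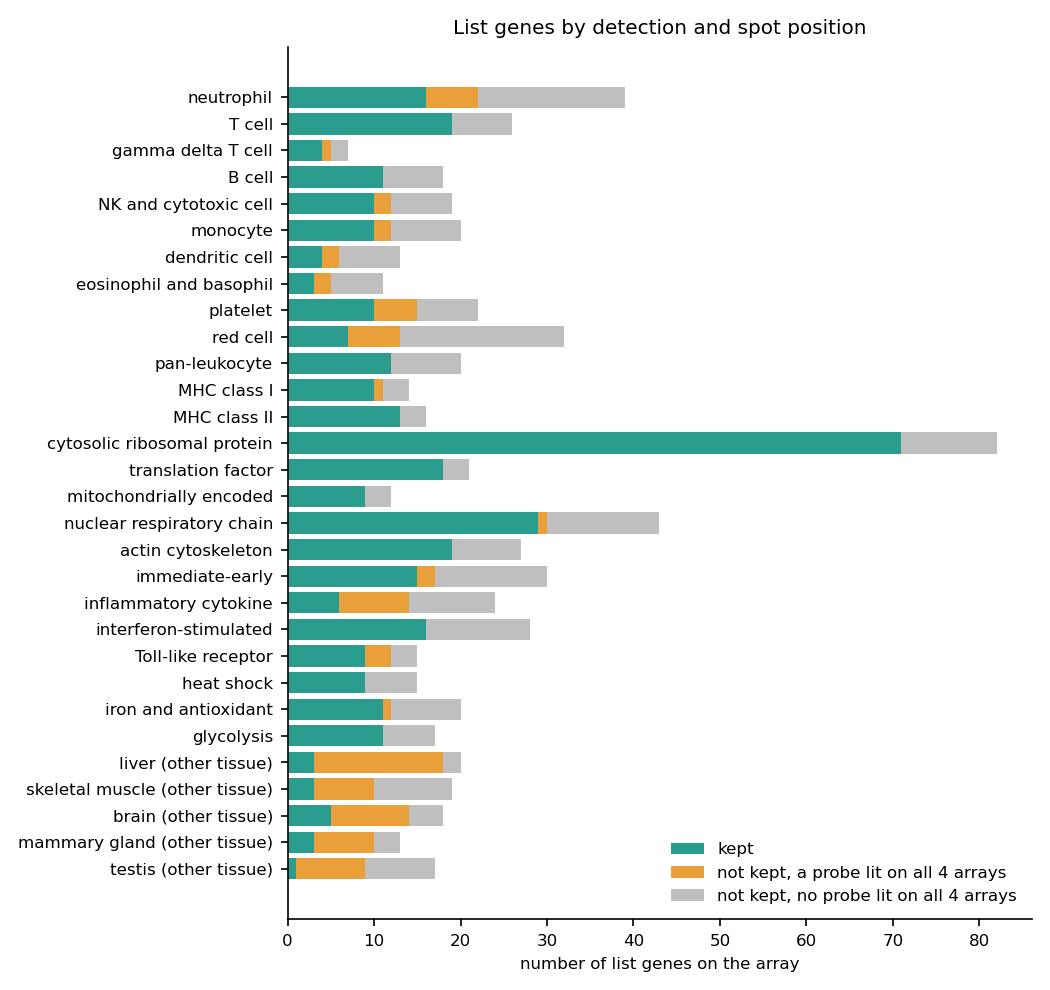
Number of genes of each list on the array, split into those kept (green), those not kept although a probe was lit on all 4 CONTROL arrays (orange) and those not kept without such a probe (grey). The orange part is 0 for T cell and ribosomal protein genes, 6 of 32 for red cell genes and 15 of 20 for liver genes.

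Genes that answer stimulation were uneven. Of 30 immediate-early genes 15 were kept (50%, against 38.2% of all named genes), at a median of 3.64. Of the 13 with a probe lit on all 4 arrays 11 were kept by one (84.6%, against 60.3%). MCL1, a survival factor, stood at 7.27 ± 0.17 on dim spots and KLF6 at 6.65 ± 0.53. ZFP36L1, an RNA-binding protein, stood at 6.41 ± 0.41, the phosphatase DUSP1 at 6.10 ± 0.57 and FOS at 5.02 ± 0.50. These transcripts were thus measured well above background in blood that had received no agent.

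Inflammatory cytokine genes were mostly not kept. Of 24 on the array 6 were kept (25%), and only 4 of the 14 with a probe lit on all 4 arrays were kept by one (28.6%, against 60.3% over all genes). NFKBIA, the inhibitor of NF-kB, read 6.27, 6.24, 6.20 and 7.26, and IL1B, interleukin-1 beta, 4.26, 4.54, 4.46 and 5.09 (4.59 ± 0.36). GRO1, a neutrophil-attracting chemokine, averaged 2.37 ± 0.48 and IL10 2.15 ± 1.08 on dim spots, while another IL10 probe, lit on all 4 arrays, was not kept. IL1A, in contrast, was low on lit spots at -1.83, -1.87, -1.74 and -0.83. TNF had no probe well above background on any array; it lay near the floor on dim spots.

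Interferon-stimulated genes were kept in 16 of 28 (57.1%, against 38.2% of all named genes), at a median of 3.51. All 12 with a probe lit on all 4 arrays were kept by one, against 60.3% over all named genes. MX1, a GTPase that blocks viruses, averaged 5.92 ± 0.51, the DNA sensor IFI16 5.27 ± 0.18, XAF1 4.92 ± 0.44, OAS1Y 4.42 ± 0.54 and the transcription factor STAT2 4.34 ± 0.60. ISG15, a ubiquitin-like protein, read 4.43, 4.61, 4.46 and 3.50, with array 4 the lowest.

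Kept Toll-like receptor genes had low levels next to their adaptor. MYD88, the adaptor most of these receptors share, read 5.99, 6.18, 6.09 and 4.85. TLR10 averaged 3.67 ± 0.48, TLR6 3.37 ± 0.19 and LY96, which holds endotoxin for TLR4, 2.95 ± 0.14. TLR5, the receptor of flagellin, averaged 0.99 ± 0.28 on dim spots, where a low value cannot be told from lost signal. TLR4 stood at 0.72 ± 0.46. TLR2, which senses lipoproteins, had no reading: all 4 of its values, -1.34, -3.53, -3.70 and -2.54, came from dim spots. Of 15 genes of the pathway 9 were kept (60%, against 38.2% of all named genes). Of the 10 with a probe lit on all 4 arrays 7 were kept by one (70%, against 60.3%).

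Housekeeping groups were in the upper part of the order. HSPA8, a constitutive chaperone, averaged 8.48 ± 0.58 and HSP90AA1 7.29 ± 0.57, within 9 kept of 15 heat shock genes. That is 60%, against 38.2% of all named genes. GPX1, which reduces peroxides, stood at 8.05 ± 0.21, and the ferritin chains FTL and FTH1, which store iron, at 7.77 ± 0.61 and 7.39 ± 0.56, within 11 of 20. The FTH1 probe was dim on all 4 arrays. Among glycolytic genes, 11 of 17 kept, GAPDH averaged 7.59 ± 0.41 and LDHB, a lactate dehydrogenase chain, 7.43 ± 0.61. ENO1, enolase, read 7.35, 7.54, 7.77 and 1.02, with array 4 far below, and its probe was lit on 1 array only.

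Few genes of other tissues were kept. Across 5 lists (liver, skeletal muscle, brain, mammary gland and testis) 15 of 87 genes on the array were kept (17.2%), and 9 of the 58 with a probe lit on all 4 arrays were kept by one (15.5%), against 60.3% over all named genes. HP, haptoglobin, a plasma protein that granulocytes also store, read 3.31, 3.37, 3.58 and 3.88 (3.53 ± 0.26) on lit spots. APOA2, a liver apolipoprotein, averaged 4.13 ± 0.20 on dim spots, and the milk casein CSN2 2.74 ± 0.34 on a probe lit on 1 array. ALB, albumin, was not kept, and neither were APOA1, MYH1, MYH2, NEFL, NEFM, CSN1S1, CSN1S2, PRM1, PRM2 and TNP1.

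The highest gene of these lists was DES, desmin, the intermediate filament of muscle, and its probe resembles that of VIM, vimentin, the intermediate filament of leukocytes. The DES probe A_73_P323881 read 5.25, 5.47, 5.41 and 6.50 (5.65 ± 0.57), and the VIM probe A_73_P100011 read 5.39, 5.73, 5.68 and 6.57 (5.84). Laid side by side without gaps, the probes match at 44 of 46 bases, and the capitals below mark their shared run of 27. A further DES probe, A_73_P100026, was lit on all 4 arrays and at the floor on each. Whether the DES probe shown also bound vimentin transcripts was not tested.
DES: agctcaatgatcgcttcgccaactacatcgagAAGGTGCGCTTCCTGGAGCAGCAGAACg
VIM: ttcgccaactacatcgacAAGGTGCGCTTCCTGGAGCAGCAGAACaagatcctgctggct

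The polyadenylation hexamer was common in bright probes. AATAAA, searched in the 60 bases of each probe as printed, was found in 25% of the 200 highest kept probes, in 12.6% of all kept probes and in 8.32% of those not kept. Its reverse complement TTTATT was found in 2.50%, 4.07% and 3.27%. Over probes lit on all 4 arrays the shares were 25%, 11.5% and 6.63%, and with ribosomal protein genes left out the 200 highest lit probes held it in 22.0%. Median GC content was 43.3% in the 200 highest and 45.0% in the kept probes. The windows below, from leading genes of several groups, have the hexamer in capitals. A match is a description of the letters in the probe.
RPL21: gatgggtgtaaaAATAAAgacctggactgt
RPS19: tgatgctgggttAATAAAttgcctcgttcg
TPT1: tcatgtaggttgtctaaaAATAAAacgcat
S100A12: gaagagagaattAATAAAcgtactttggca
IFITM2: aaccactgaatcAATAAAgcacccttgtct

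Several of the brightest probes had no gene name. Among the 500 highest kept probes 68 were unnamed, and 9 of them shared a run of at least 25 bases with a named probe. A_73_P494338, at 10.37 ± 0.60, shared the 29 bases shown with a probe of EEF1A1. A_73_P494988, at 10.05 ± 0.56, shared a run with a probe of RPS12, a small-subunit protein, of which the first 30 bases are shown.
A_73_P494338: ttttgtggaccatatgttttgtgtgtggc
A_73_P494988: gatgtcatcgaggagtacttcaaatgcaag

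Probes of 1 gene often disagreed even where the array was lit. For 905 genes with several kept probes, all of them lit on all 4 arrays, the gap between the highest and the lowest had a median of 1.98 and exceeded 2 in 445 (49.2%). RPL37, a large-subunit ribosomal protein, read 10.19 ± 0.61 on its highest kept probe and 0.18 ± 0.39 on its lowest, and IL32, a cytokine of lymphocytes, 7.95 ± 0.53 and -0.58 ± 0.50. FBXL14 read 8.13 ± 0.70 and -0.91 ± 0.63, RASA3 7.63 ± 0.44 and -0.15 ± 0.33, and RABGGTA 7.54 ± 0.44 and -0.17 ± 0.48. These gaps exceed the SD over arrays many times, so the level given for a gene is that of its best probe.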

How the data were processed

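Per the file headers, the authors deposited 1 scanner file per array from Agilent Feature Extraction (version 10.10.1.1, per the submitters' processing notes), whose processed signal is an intensity after background subtraction and spatial detrending. The deposited averages table holds log2 values and was used only for probe names, descriptions and sequences. Only the 4 CONTROL arrays were analysed, without control spots or spots the software marked as outliers (31 to 73 per array), and no spot was saturated. Levels are log2 of the processed signal minus each array's 75th percentile. Of the kept probes, 80 had fewer than 4 usable values and were averaged over the rest.

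Probes were named by transcript accession in the RefSeq gene table (27135 probes) or by symbol (6462); 1382 kept only the file's symbol and 8674 had none. No genome of the array's build was used, so no positions are given, and promoter and protein sequences were not analysed here. The members and the 30 gene lists were chosen with earlier results of these data known. Genes named are the 25 highest, up to 6 kept members of each list with any of its first 3 members on the array but not kept, the 5 with the largest SD among the 500 highest, the 5 with the largest gap between lit probes, the 10 highest lit on all 4 arrays and the 2 highest unnamed probes. CD14, CD8A, CD3D, JCHAIN, SELENBP1, BoLA, BOLA-N, COTL1, SPI1, PSMB9, CCR2, NCF4, TNF, VIM, RPL14, ND4L, ALAS2, SLC4A1, CCR3, the cathelicidins, MPO, LTF, CTSG, BPI and the red cell and platelet genes at the floor on lit spots were added after their values were seen. Some genes that the rule names are not reported here. The lit and dim calls and the rank order of kept probes lit on all 4 arrays were tested on simulated arrays. Their dim areas had straight edges and a fixed loss of signal. Levels on dim spots and the choice of a gene's probe were not tested in this way. Alternatives changed the filter, scaling, background correction, probe summary and spot position; normexp (limma 3.58.1, offset 50) was run on the median signal, since the columns used held no mean signal. Software was Python 3.11.15 with numpy 2.4.6 and pandas 2.3.3, and R 4.3.3.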

Additional observations from a re-analysis of the deposited data

Results flagged for a closer look

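For 174 genes, 30 list medians and 6 array measures, the array farthest from the others was compared with the whole range of the 4; a gap to the nearest array above the critical share of that range in Dixon's test for 4 samples marked it. Chance alone marks about 1 in 20 groups, and the same arrays enter every comparison. Of the genes 21 were marked, 11 of them low on array 4 and 9 high on array 4.

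Array 4 was the low one for ITPR1 (gap 0.885 of the range), BOLA-A (0.965), BOLA-DRA (0.9), ISG15 (0.835), MYD88 (0.863), ENO1 (0.938), APOA2 (0.868), GTF2H5 (0.967), FAU (0.943), TSPYL4 (0.961) and TNS4 (0.955). None of these 11 had its probe lit on all 4 arrays. BOLA-A read 7.27, 7.34, 7.50 and 0.96. GTF2H5 (SD 3.93), FAU (3.81), TSPYL4 (3.62) and TNS4 (3.6) had been named for their SDs, among the largest in the 500 highest. A mark on the same 4 values was thus likely from the start, and their marks cannot be read against the chance rate. TSPYL4 read 9.28, 9.40, 9.57 and 2.18.

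Array 4 was the high one for GZMB (0.911), KIT (0.917), HBE1 (0.838), ZFP36L1 (0.83), NFKBIA (0.933), GRO1 (0.84), AMBP (0.936), KRT14 (0.858) and ODF2 (0.847), and for the medians of the NK and cytotoxic cell list (0.849) and the testis list (0.847). All of these genes but KRT14 sat on spots lit on all 4 arrays. The levels entered without centring, and the median of kept probes was 1.79, 2.01, 1.97 and 2.53 on arrays 1 to 4. Genes share this offset, and whether the marks remain once arrays are centred was not tested. RPLP1 was marked for array 1, its lowest (0.877).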

How the results depend on the processing

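No paired analysis was possible because the description rests on 1 group and no test. The 6511 kept genes became 7923 with a probe well above background on at least 3 arrays, 9513 with the laxer call of positive and significant, and 5119 on lit spots only; leaving out 1 array gave 6534 to 7772, the highest without array 4. Of the 100 highest genes, 72 to 100 stayed among the highest 100 under the alternatives, fewest with the mean over a gene's kept probes, and 93 to 99 when 1 array was left out. The number of lists with a median above the 50th percentile was 20, and 18 to 21 under the alternatives, the same range as when 1 array was left out. Ribosomal protein genes had the highest list median under every alternative except lit spots only, where they came at place 2. Spots lit on all 4 arrays numbered 13729, and 11146 to 15103 under other windows and limits, or 13731 to 16393 when 1 array was left out. List and gene percentiles moved by more than their SD over arrays in 123 and 96 cases and by less in 386 and 329. These counts pool all alternatives. Those that only shift each array by a constant, such as spike-in scaling, can hardly change an order of means, and all 30 lists and 25 genes moved by less there. Lists moved by more in 24 of 30 with at least 3 arrays, 24 of 30 with the mean over kept probes and 21 of 30 with the laxer call. Signal over background limits what can be said: 59.2% of probes were well above background on no array, and 3182 only on arrays 1 to 3.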

Other observations

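A few genes not usual in blood had a bright probe on lit spots, with another lit probe of the same gene at the floor; they were picked after their values were seen. AVP, the vasopressin precursor, read 8.87 ± 0.19 (SD, n = 4) on 1 lit probe and lay at the floor on another lit one. FGF2, a fibroblast growth factor, read 8.66 on its highest probe and lay at the floor on another. AGTR1, the angiotensin receptor, read 9.36 on a dim probe and 7.35 on a lit probe, with other lit probes at the floor. Of 363 genes with at least 2 lit probes and a kept one above 5, 11 (3.03%) had another lit probe at the floor on all 4 arrays.

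Over arrays 1 to 3 alone, 7772 genes were kept, against 6511 with array 4. The genes named here are among the highest of those that came in, and the rest are not described. COTL1, an actin-binding protein, averaged 8.09, the granulocyte and monocyte transcription factor SPI1 6.46, and the immunoproteasome subunit PSMB9 6.55.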
